A study of Mus musculus with 2 samples.

Results

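The Mir103 and Mir107 family of the mouse consists of 3 microRNA genes, Mir107, Mir103-2 and Mir103-1, each lying inside a gene for a pantothenate kinase. They were taken by symbol from the 1973 microRNA gene rows of the count tables, and all 3 members had a row. The tissue was forebrain of B6NCrl embryos at day 15.5, sexes mixed, with RNA below 30 nt sequenced. The design held 1 group, untreated and healthy, of 2 libraries. Replicate 2 pooled 62 embryos and replicate 1 pooled 78. No comparison between conditions exists, so every difference given is between these pools or between genes.

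A microRNA is released from a folded hairpin precursor and represses messenger RNAs, mostly through pairing of its seed (bases 2 to 8). Each hairpin has a 5p and a 3p arm, and in this family the 3p arm is known as the main product. Pantothenate kinases carry out the first and rate-limiting step by which cells make coenzyme A from vitamin B5, and the microRNAs are processed from introns of the kinase transcripts. In mice the family has been reported to limit insulin sensitivity through caveolin-1, and in human cells to lower Dicer, the enzyme that cuts microRNA precursors. None of these targets was measured here.

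The hairpins are shown because the order of the levels has to be read beside their sequence. They are given 5′ to 3′ from RefSeq (GRCm38.p6, the mm10 build), with the 3p arm in capitals. Mir107 (ENSMUSG00000065594.1) is at chr19:34820687-34820773 on the minus strand, Mir103-2 (ENSMUSG00000065563.1) at chr2:131288052-131288137 on the plus strand and Mir103-1 (ENSMUSG00000065553.1) at chr11:35782396-35782481 on the plus strand.
Mir107: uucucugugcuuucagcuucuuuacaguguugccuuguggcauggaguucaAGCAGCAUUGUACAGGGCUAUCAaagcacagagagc
Mir103-2: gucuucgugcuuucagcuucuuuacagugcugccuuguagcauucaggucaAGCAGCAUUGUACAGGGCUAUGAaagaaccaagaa
Mir103-1: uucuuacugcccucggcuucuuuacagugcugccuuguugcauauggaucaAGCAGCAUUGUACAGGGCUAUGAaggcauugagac

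The mature arms show what the members share, with the seed in capitals. The last sequence is the 5p product of the Mir16 genes, whose seed is a neighbour of that of the family.
miR-107-3p: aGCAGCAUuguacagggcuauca
miR-103-3p: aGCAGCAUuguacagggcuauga
miR-107-5p: aGCUUCUUuacaguguugccuug
miR-103-2-5p: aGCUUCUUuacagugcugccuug
miR-103-1-5p: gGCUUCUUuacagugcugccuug
miR-16-5p: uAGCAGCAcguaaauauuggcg

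All 3 genes had 1 seed for the 3p arm and 1 for the 5p arm. Among 1679 RefSeq mature microRNAs, no other gene had the 3p seed GCAGCAU or the 5p seed GCUUCUU. Bases 1 to 7 of the family's 3p arm, AGCAGCA, are the seed of 10 other mature microRNAs from 11 genes, miR-15a, miR-15b, miR-16 and miR-195a among them. The family's seed thus lies 1 base further along the same stretch of letters.

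The 3p arm of Mir103-2 and that of Mir103-1 are the same 23 bases. miR-107-3p differs from miR-103-3p by G22C, counted from 1 at the 5′ end with the miR-103-3p base first. A 3p read of Mir107 that starts at the annotated 5′ end is therefore distinct from both Mir103 hairpins only when it reaches 22 bases. Such a read of Mir103-2 or Mir103-1 is distinct from every other RefSeq hairpin only at 25 bases, 2 beyond the annotated 3′ end. No 5p arm is identical to another as a whole. miR-103-1-5p against miR-103-2-5p has G1A alone, and miR-103-2-5p against miR-107-5p has C16U alone, again counted from the 5′ end. The 5p arms of Mir103-1 and Mir103-2 are thus the same after their first base. A 5p read without that base that ends within the arm fits both. Of all 18-base stretches, 13 of 70 in Mir107 (18.6%), 22 of 69 in Mir103-2 (31.9%) and 16 of 69 in Mir103-1 (23.2%) occurred in another RefSeq hairpin. The tables count reads placed at 1 locus and put those placed at several into a row that names no gene. The values below are thus of uniquely placed reads, and the total amount of miR-103-3p in the tissue cannot be read from them.

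Over all aligned columns of the whole hairpins, which include the near-identical arms, Mir107 and Mir103-2 were 83.9% identical, Mir107 and Mir103-1 80.5%, and Mir103-2 and Mir103-1 80.2%. The predicted minimum free energy was -41.2 kcal/mol for Mir107, -31.8 for Mir103-2 and -35.8 for Mir103-1. Per base these are -0.47, -0.37 and -0.42 kcal/mol, against a median of -0.41 over 1005 RefSeq hairpins, so the folds were ordinary for microRNA precursors. These are calculated values, not measurements.

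**Figure D1:**
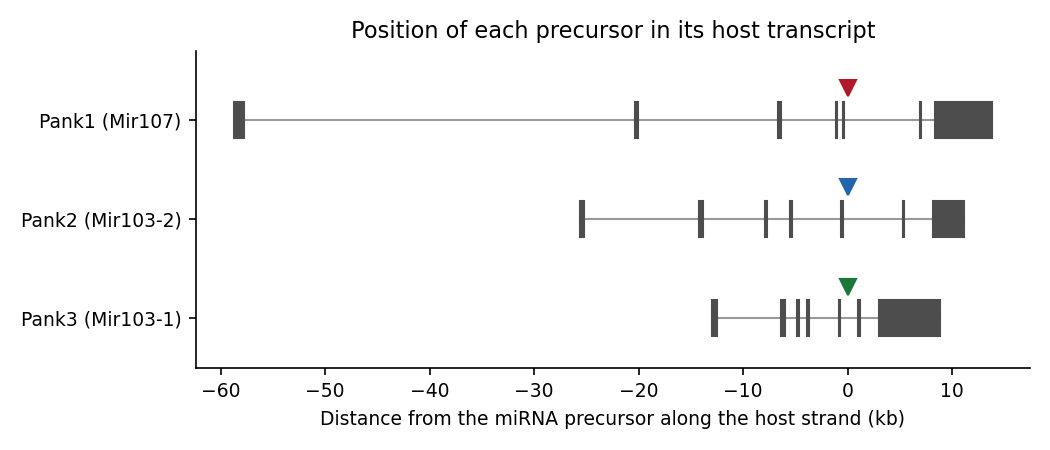
Longest protein-coding transcript of each host gene (GENCODE M21), drawn along its own strand in kb from the precursor (triangle). Dark boxes are exons and lines introns. In all 3 hosts the precursor lies between exon 5 and exon 6 of 7.

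Each precursor lay in the same intron of its host and on the host's strand. Mir107 was in intron 5 of 6 of Pank1 (chr19:34806940-34879455), Mir103-2 in intron 5 of 6 of Pank2 (chr2:131262495-131299188) and Mir103-1 in intron 5 of 6 of Pank3 (chr11:35769484-35791285), counted on the longest protein-coding transcript. No annotated transcript of any host had an exon over the precursor. Exons 2 to 6 had the same lengths in all 3 hosts, 353, 254, 177, 124 and 126 bases. The introns did not share a length. Intron 5 was 7282 bases in Pank1, 5801 in Pank2 and 1740 in Pank3. Mir107 began 326 bases after exon 5, Mir103-2 454 bases and Mir103-1 688 bases. Host messenger RNA was not measured in these libraries of short RNA.

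Replicate 2 held 13074292 reads and replicate 1 held 11743597, of which 4753555 and 4464927 were counted on the sense strand of microRNA genes. Multi-locus reads made up 42.4% of replicate 2 and 44.6% of replicate 1. Of 10 neural marker genes with a row, 7 had at least 10 counts in each library, led by Mir137 at 9092 ± 926 CPM (SD, n = 2). The 3 Mir124a rows stood at 1.05 to 2.80 CPM on average, and their copies also share sequence. Of 8 marker rows for other cells, endothelial Mir126a was highest at 16117 ± 369 CPM, and blood, liver and muscle markers were lower. Of the muscle markers, Mir1a-1 and Mir133a-1 were at 0 in both libraries, but both have a near-identical copy elsewhere, and how many of their reads lay in the multi-locus row was not tested. Mir206, which marks skeletal muscle, had 23 counts in replicate 2 and 92 in replicate 1 (4.84 and 20.6 CPM), with a log2 ratio of -2.07 and an adjusted p of 2.53e-11 in the exact binomial test over 457 genes. Those 8 rows summed to 1.67% of counts in replicate 2 and 1.61% in replicate 1. How far other cells contributed to the family's levels was not tested.

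Mir107 was the highest member by far. It had 7241 counts in replicate 2 and 7580 in replicate 1. As normalised counts (CPM, counts scaled to a sum of 1000000 over the microRNA genes of a library) this was 1523 in replicate 2 (Clopper-Pearson 95% interval 1488 to 1559) and 1698 in replicate 1 (1660 to 1736), a mean of 1610.5 ± 123 (SD, n = 2). Replicate 2 was the lower library and the intervals did not overlap. Intervals cover only the counting error of a single library. The reads carry no molecular identifiers and PCR copies count as separate reads, so the intervals may be too narrow even for that. In bulk tissue, fewer cells of a type and less RNA per cell cannot be told apart.

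Mir103-2 was in the middle. It had 208 counts in replicate 2 and 228 in replicate 1, which gave 43.8 CPM (38.0 to 50.1) in replicate 2 and 51.1 CPM (44.7 to 58.1) in replicate 1. The mean was 47.4 ± 5.17 CPM (SD, n = 2), and the intervals of the libraries overlapped.

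Mir103-1 was the lowest. It had 19 counts in replicate 2 and 17 in replicate 1, which gave 3.997 CPM (2.41 to 6.24) in replicate 2 and 3.81 CPM (2.22 to 6.10) in replicate 1. The mean was 3.90 ± 0.134 CPM (SD, n = 2). With so few counts the interval of a single library spans more than the gap between the libraries.

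**Figure D2:**
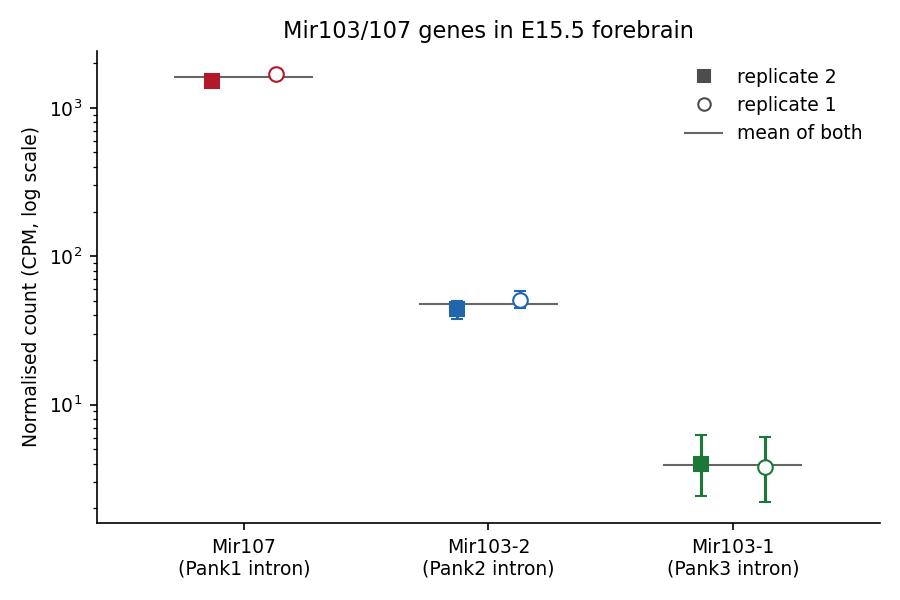
Normalised counts (CPM, log scale) of the 3 genes, with replicate 2 as filled squares, replicate 1 as open circles and their mean as a line. Bars are Clopper-Pearson 95% intervals, which cover counting error only. Mir107 stood near 1610.5 CPM, Mir103-2 near 47.4 and Mir103-1 near 3.90, with no overlap between genes.

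The order Mir107, Mir103-2, Mir103-1 held in both libraries, and no neighbours in it overlapped. Counts of Mir107 exceeded those of Mir103-2 by 34.8-fold in replicate 2 (Clopper-Pearson interval 30.3 to 40.2) and 33.2-fold in replicate 1 (29.1 to 38.1). Counts of Mir103-2 exceeded those of Mir103-1 by 10.9-fold in replicate 2 (6.84 to 18.6) and 13.4-fold in replicate 1 (8.19 to 23.4). Each ratio lay within the other library's interval, so the proportions of the members were not separated between the pools. The precursors are nearly equal in length, at 87, 86 and 86 bases. The share of 18-base stretches that also occur in another RefSeq hairpin was 18.6% in Mir107, 31.9% in Mir103-2 and 23.2% in Mir103-1. How far this enters the ratios was not tested. The shared 3p sequence bears on the ratios as well. Whole miR-103-3p reads could be placed at neither Mir103 gene alone, and how many there were was not tested.

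Of all counts in the family, Mir107 held 96.96% in replicate 2 (96.5 to 97.3) and 96.87% in replicate 1 (96.5 to 97.2). Mir103-2 held 2.79% in replicate 2 and 2.91% in replicate 1, and Mir103-1 held 0.254% in replicate 2 and 0.217% in replicate 1. Family totals were 7468 counts in replicate 2 and 7825 in replicate 1, or 0.157% and 0.175% of all gene counts. The row of multi-locus reads was 742 times the family total in replicate 2 and 669.7 times in replicate 1, and how many of its reads came from the family was not tested.

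None of the 3 genes had a count on the opposite strand. For Mir107 the limit that 0 allows, at 3 counts, was a share of 0.0414% in replicate 2 and 0.0396% in replicate 1. For Mir103-2 it was 1.44% in replicate 2 and 1.32% in replicate 1. For Mir103-1 it was 15.8% in replicate 2 and 17.6% in replicate 1, which says little about this gene.

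**Figure D3:**
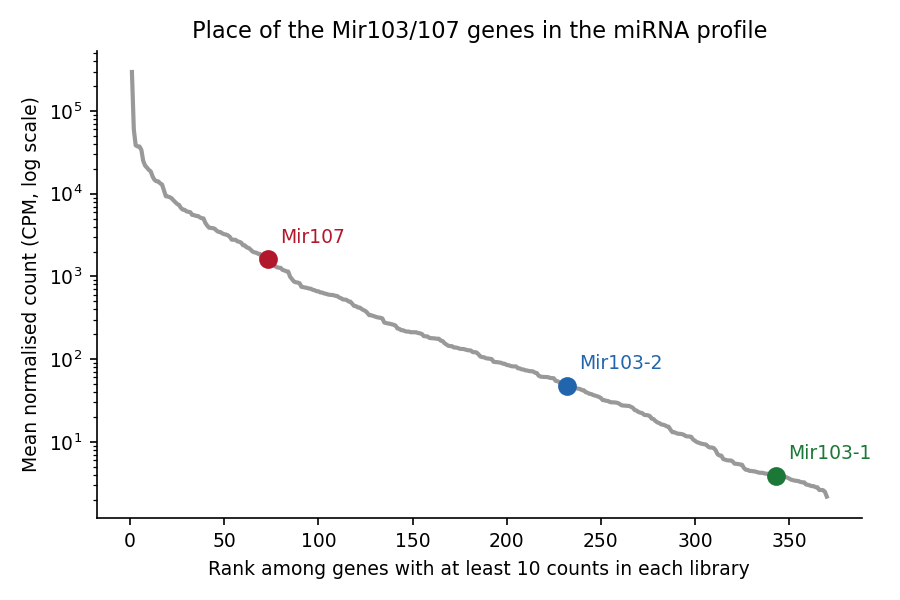
Mean normalised count (CPM, log scale) of the 370 genes that had 10 or more counts in each library, in order of level. Mir107 was at rank 73, Mir103-2 at rank 232 and Mir103-1 at rank 343.

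In uniquely placed reads, the members spanned most of the profile. Among these 370 genes, which had 10 or more counts in each library, Mir107 ranked 73 and stood above 80.3% of them. Mir103-2 ranked 232, above 37.3%, and Mir103-1 ranked 343, above 7.30%. The median of these genes was 111 CPM, so Mir107 lay above it and both Mir103 genes below it.

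Genes with the most similar pattern were those nearest in log2(CPM + 1) over the 2 libraries, a likeness of level over 2 libraries. For Mir107 these were Mir598 (distance 0.043), at 1569 CPM in replicate 2 and 1692 CPM in replicate 1, then Mir431 of the imprinted Dlk1-Dio3 region (0.13) and Mir101b (0.18). For Mir103-2 they were Mir6236 (0.094), Mir30c-1 (0.16) and Mir326 (0.20). For Mir103-1 they were Mir6971 (0.062), Mir1947 (0.089) and Mir1927 (0.090). No gene was a neighbour of more than 1 member.

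Between the libraries, Mir107 was lower in replicate 2. Its log2 ratio of replicate 2 over replicate 1 was -0.16, with an interval of -0.20 to -0.11 from counting error (two-sided exact binomial test against the libraries' totals, Benjamini-Hochberg adjusted p = 2.71e-10 over 457 genes). Of those 457 genes, 36.3% were called in either direction and 17.1% were called lower, so 1 call among 3 members was near the background. The split of all calls, 88 higher and 78 lower in replicate 2, became 72 and 96 with TMM scaling, 125 and 56 when the total did not include Mir99a, the most abundant gene, and 68 and 109 with all reads as the total. The direction and call of Mir107 held under each of these.

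Mir103-2 had a log2 ratio of -0.22 with an interval of -0.50 to 0.055 and was not called (exact binomial test, adjusted p = 0.229). Mir103-1 had a log2 ratio of 0.066 with an interval of -0.95 to 1.10 and was not called (exact binomial test, adjusted p = 1). The point estimate of Mir103-2 was further from 0 than that of Mir107. Its interval was wider, at 208 and 228 counts, and included both 0 and the ratio of Mir107. A shift as large as that of Mir107 was not detectable in either Mir103 gene at this depth.

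The test covers counting error and compares these libraries, not conditions. The spread over replicates, as the coefficient of variation that edgeR fitted over 370 genes, was 14.1% at the level of Mir107, 17.2% at that of Mir103-2 and 17.96% at that of Mir103-1. The SDs of the members were 7.66%, 10.9% and 3.43% of their means. All 3 SDs were below the fitted values, but the 2 measures differ. The fitted coefficient leaves out counting error, which the SDs include, and each SD rests on 2 libraries. Whether the members varied less than other genes at their level cannot be decided from these values. Of the 457 genes, 62.8% had a larger absolute log2 ratio than Mir107, 51.2% than Mir103-2 and 81.8% than Mir103-1.

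**Figure D4:**
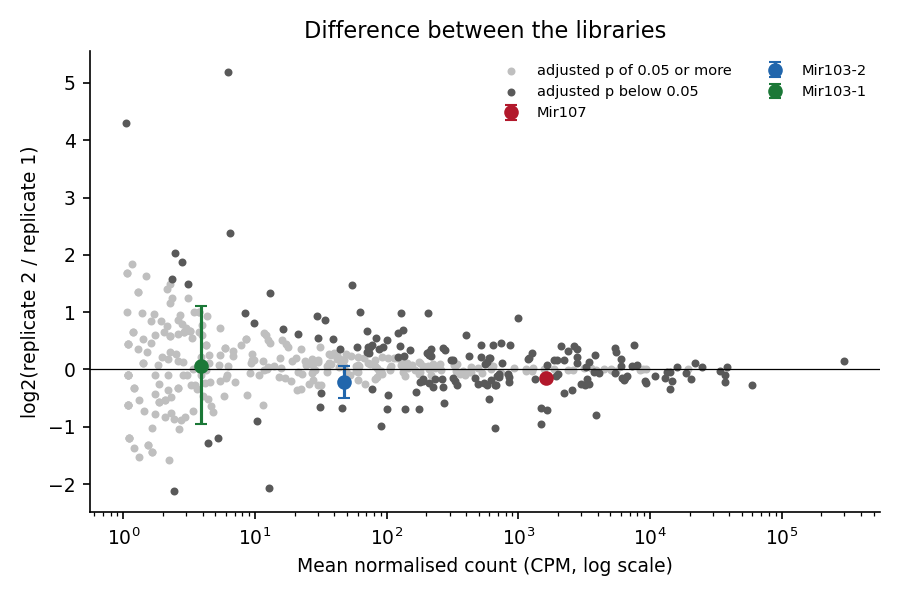
Log2 ratio of replicate 2 over replicate 1 against mean normalised count (CPM, log scale) for the 457 genes tested. Dark points had an adjusted p below 0.05 in the exact binomial test, and bars on the 3 members are intervals from counting error. Mir107 sat at -0.16 with a narrow interval, and Mir103-2 and Mir103-1 had intervals that included 0.

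The members were then set beside other genes by whether a whole mature arm also occurs in another hairpin. RefSeq gave mature arms for 858 of the 1973 rows by symbol, and the others, Mir125b-2 and Mir99b among them, fell in no class. A copy without a RefSeq entry is not seen, so genes counted as having no shared arm may still share one. Mir107 belonged to the genes with no shared arm, and Mir103-2 and Mir103-1 to those with 1 shared arm and 1 of their own. Without the last 2 bases of each arm Mir107 moved to the second kind, because its 3p arm then occurs in both Mir103 hairpins. With at least 10 counts in each library there were 274 genes of the first kind, with a median of 124 CPM. There were 33 genes of the second kind, with a median of 176 CPM, and 9 genes with every arm shared, with a median of 63.0 CPM. Of the 33, 10 stood below Mir103-2 and 1 stood below Mir103-1. Of the 274, 57 stood above Mir107. Among genes with at least 1 count in either library, the median was 47.3 CPM for the 57 with a shared arm and 3.49 CPM for the 524 with no arm shared. Genes are not replicates, and these medians are a description.

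**Figure D5:**
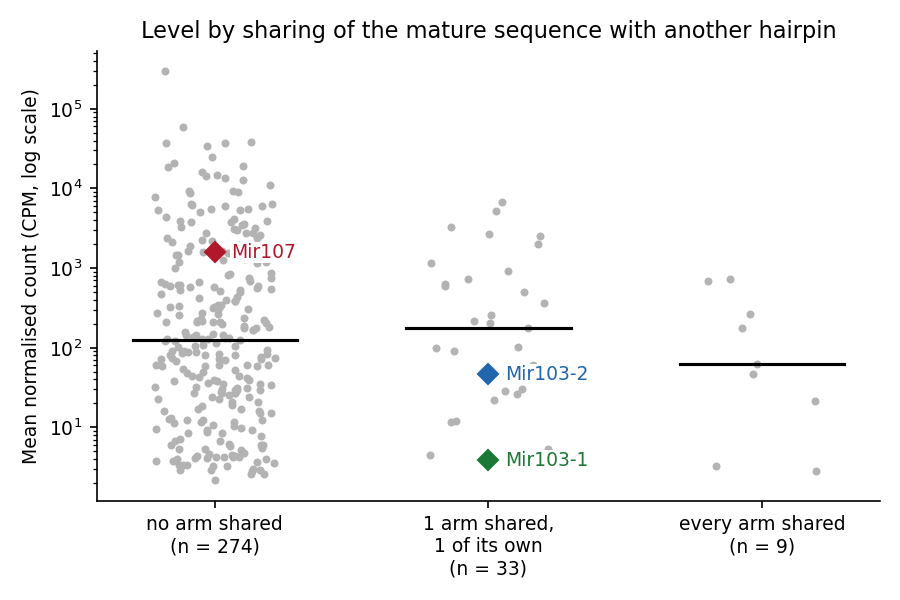
Mean normalised count (CPM, log scale) of genes with a RefSeq arm and 10 or more counts in each library. Genes are grouped by how many of their mature arms occur whole in another RefSeq hairpin. Points are genes, bars are medians (124, 176 and 63.0 CPM from left to right) and diamonds are the members.

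Copies with an identical arm differed in level to varying degrees. RefSeq arms found in exactly 2 of the matched rows gave 18 pairs of genes, both with 10 or more counts per library. Left out were arms in more than 2 rows and genes without a RefSeq arm under their symbol, such as Mir125b-2. In these pairs the higher exceeded the lower by a median of 3.26-fold. The range was 1.37-fold for Mirlet7c-2 and Mirlet7c-1 to 224-fold for Mir9-3 and Mir9-2. Mir103-2 exceeded Mir103-1 by 12.1-fold in mean CPM. Of the 18 pairs, 3 had a larger ratio, namely Mir92-1 and Mir92-2 (26.2-fold), Mir181b-2 and Mir181b-1 (115-fold) and the Mir9 pair. These 3 were named after their values were seen. Both arms of the Mir9 pair occur in other hairpins, unlike those of the Mir103 pair. Over the 13 pairs in which both genes had 1 shared arm and 1 of their own, the median ratio was 3.24-fold, the range 1.64-fold to 115-fold, and 2 ratios were larger than that of the Mir103 pair. Mir26a-2 and Mir26a-1, which like the family sit in introns of a protein family (the Ctdsp phosphatases), differed by 4.98-fold.

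Of 20 listed genes from families with like copies at other loci, the 2 Mir103 genes included, 17 had a row under that symbol and all 17 had at least 10 counts in each library. A whole mature arm was shared with another RefSeq hairpin in 14 of them, and Mir153, Mir101a and Mir101b shared none. Mir7a-1, Mir7a-2 and Mir9-1 had no row under those symbols, and the rows Mir7-1 (593.6 CPM) and Mir7-2 (260.1 CPM) were not taken into the list. The 17 genes ran from 3.26 CPM for Mir9-2 to 5193 CPM for Mir16-1, with a median of 49.2 CPM. Mir103-2 stood below 9 of them and Mir103-1 below 15. Between the libraries 4 of the 17 were higher in replicate 2, 1 was lower and 12 were not called (exact binomial test, adjusted p below 0.05 over 457 genes). Over all 457 genes 19.3% were called higher and 17.1% lower. The median log2 ratio was 0.031, against 0.047 over all genes tested.

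Most of the miR-15/16 relatives have the AGCAGCA seed and are known for slowing the cell cycle. The group had far more uniquely placed reads than the family. Whole miR-103-3p reads could be placed at neither Mir103 gene alone. Mir16-1 and Mir16-2 also have 1 whole arm in common, and its reads could be placed at neither alone. Amounts of mature microRNA were therefore not compared. Of 10 listed genes 8 had a row, 7 had at least 10 counts in each library and Mir195b was at 0. They held 2.97% of all counts in replicate 2 and 2.79% in replicate 1, where the family held 0.157% in replicate 2 and 0.175% in replicate 1. Mir322 was highest at 13346 ± 258 CPM (SD, n = 2) and Mir503 lowest at 134 ± 8.05 CPM. Mir322, Mir15a (7526 ± 1583 CPM) and Mir16-1 (5193 ± 76.2 CPM) stood above Mir107, and all 7 stood above Mir103-2. In replicate 2 Mir15a was higher (log2 ratio 0.43), Mir322 was lower (-0.04) and 5 were not called by the same test, so 2 of 7 were called, where 36.3% of all genes tested were. Their median log2 ratio was 0.014, against 0.047 over all genes tested.

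Other microRNAs with a reported part in lipid or glucose metabolism were mostly lower than Mir107. Of 14 listed genes 13 had a row and 11 had at least 10 counts in each library. Mir143, a mural cell and adipocyte microRNA, was highest at 3459 ± 219 CPM (SD, n = 2) and was the single member of the list above Mir107. Mir34a was the lowest of the 11 at 52.6 ± 2.63 CPM, still above Mir103-2. Mir33, in an intron of the sterol regulator gene Srebf2, stood at 109.8 CPM in replicate 2 and 105 CPM in replicate 1. Mir122 of liver stood at 77.1 ± 16.2 CPM, and Mir802 and Mir378b had at most 3 counts in a library. Of the 11, 5 were higher in replicate 2, 2 were lower (Mir375 with a log2 ratio of -0.58 and Mir370 with -0.15) and 4 were not called by the same test. Over all genes tested, 19.3% were called higher and 17.1% lower. Their median log2 ratio was 0.20, against 0.047 over all genes tested, and Mir107 lay on the other side of 0.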

How the data were processed

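Small RNA of 2 forebrain libraries was analysed. The deposited tables hold read counts per microRNA gene, not normalized. Per the README text the authors deposited, they come from alignments to mm10 with GENCODE M4. That text names no aligner or counter. The column with the larger strand total was taken as sense. The 4 rows that name no gene stayed out of library sizes and tests. They hold 42.4% multi-locus, 18.2% unmapped and 2.53% no-feature reads in replicate 2, and 44.6%, 14.3% and 2.42% in replicate 1.

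Symbols and hosts came from GENCODE M21 by gene identifier (1894 of 1973 rows matched), and sequences from RefSeq by symbol. CPM is the sense count over the sum of gene rows, times 1000000. Genes with at least 10 counts in total were tested with a two-sided exact binomial test, conditional on the gene's summed count, with Benjamini-Hochberg adjustment at 0.05 over all of them. Log2 ratios between the libraries had 0.5 counts added, and folds between genes had none. No quasi-likelihood test was run, since 1 group has no contrast. Spread came from edgeR 4.0.16 with TMM factors, and DESeq2 1.42.0 gave other size factors. Folds came from RNAfold 2.7.2, and scipy 1.17.1 gave Clopper-Pearson 95% intervals. A limit for 0 is 3 counts. The test was tried on simulated counts that held counting error alone. That trial cannot show how the test behaves where libraries have further spread, as these do.

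The members and gene lists were chosen with earlier results of these data known. Genes named are the members, the 3 nearest to each by level, and the highest and lowest gene of each list. Others were named after their values were seen. The pools are separate by their labels, but no source used here says whether they share a litter, day or batch. The p-values take account of counting error alone, and the spread between the pools, fitted separately, may be technical. Alternatives were other scalings, the either-strand column, other count minimums and additions, other definitions of shared sequence and leaving out each replicate.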

Additional observations from a re-analysis of the deposited data

How the results depend on the processing

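The level of each member moved by less than its SD with TMM scaling, DESeq2 size factors and counts on either strand. With 2 libraries both scalings move the libraries in opposite directions, so the mean could hardly change. No member had an opposite-strand count, so the either-strand column changed only the totals. Either replicate alone gave 1523 to 1698 CPM for Mir107, 43.8 to 51.1 for Mir103-2 and 3.81 to 3.997 for Mir103-1, which with 2 libraries is no check of stability. With Mir99a, the most abundant gene, left out of the total, the levels were 2289 CPM for Mir107, 67.3 for Mir103-2 and 5.55 for Mir103-1. With all reads of the library as the total they were 599.6, 17.7 and 1.45 CPM. Both changes follow from the size of the total and keep the order. The library difference kept its direction and its side of the threshold in all 8 alternatives for Mir107 (log2 ratio -0.22 to -0.097, highest adjusted p = 0.000177 by the exact binomial test) and Mir103-2 (-0.29 to -0.16, adjusted p 0.0967 to 0.395), and in all 7 for Mir103-1 (0.0013 to 0.13, adjusted p 0.936 to 1), whose 36 counts fell short of a minimum of 100. The number of genes called ran from 156 to 181. Family shares were the same on either strand, which the lack of opposite-strand counts fixed in advance. With arms shortened by 2 bases Mir107 counted as a gene with a shared arm. Among rows with a RefSeq arm, the median of genes with a shared mature arm was 2.82 CPM over all rows and 139 CPM at 10 or more counts per library. That of genes with none was 0.540 and 124 CPM. The cause is the set of genes counted. No paired analysis was possible because the design has 1 group. The depth limits Mir103-1 most, at 19 counts in replicate 2 and 17 in replicate 1.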
